A study of Mus musculus with 9 samples.

Results

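Open chromatin was described at 8 genes for receptors that adjust the response of a T cell to antigen: Cd28, Ctla4, Icos, Btla, Pdcd1, Cd5, Cd6 and Tigit. The data are ATAC-seq peaks, regions where the Tn5 transposase could reach the DNA, in resting naive CD4+ T cells of C57BL/6 mice. A peak was counted for a gene when the deposited peak table gave it that gene's symbol, or when it was intergenic and lay within 50 kb of the gene's transcripts. By that rule 164 of the 115727 peaks belonged to the 8 genes. The libraries came from Stat6 KO mice, which lack the transcription factor activated by interleukin-4, from Il21e KO mice, and from WT mice, with 3 libraries per genotype. The titles also call the second genotype IL21KO, and the labels do not say which DNA that allele removes. All cells were untreated, and they were taken by negative selection with a kit for mouse naive CD4+ T cells. The ages of the mice, and whether the 3 replicates of a genotype are separate animals, are not given in the labels, so a p-value here speaks of the spread among these samples, which may be technical.

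T cells need a second signal beside the antigen receptor. CD28 supplies it when it binds CD80 or CD86, and ICOS is a relative of CD28 that becomes abundant after activation and is needed by follicular helper cells. CTLA-4 takes the same ligands as CD28 and holds the response back. BTLA, PD-1 (the product of Pdcd1) and TIGIT are further inhibitory receptors, which bind HVEM, the PD-1 ligands and the poliovirus receptor. CD5 and CD6 are scavenger-type receptors already present on resting T cells; CD5 dampens antigen receptor signalling, and CD6 binds ALCAM.

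The promoter sequences below show what DNA lies before the start site of the members whose promoter peaks are described next. RefSeq promoters were matched for 5 of the 8 genes, Ctla4, Btla, Pdcd1, Tigit and Cd5. Each line gives the 250 bases before the start site on the GRCm38.p6 build, read 5′ to 3′ in the direction of transcription. Capitals mark TTTCC, the reverse complement of the NFAT core GGAAA, and ACCACA, the reverse complement of the RUNX motif TGTGGT.
Ctla4, chr1:60908775-60909024, plus strand: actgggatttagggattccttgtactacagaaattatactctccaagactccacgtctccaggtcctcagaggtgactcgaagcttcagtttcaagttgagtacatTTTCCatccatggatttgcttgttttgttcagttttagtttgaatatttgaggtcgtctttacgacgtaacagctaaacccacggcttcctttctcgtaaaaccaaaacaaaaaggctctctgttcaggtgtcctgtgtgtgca
Btla, chr16:45224087-45224336, plus strand: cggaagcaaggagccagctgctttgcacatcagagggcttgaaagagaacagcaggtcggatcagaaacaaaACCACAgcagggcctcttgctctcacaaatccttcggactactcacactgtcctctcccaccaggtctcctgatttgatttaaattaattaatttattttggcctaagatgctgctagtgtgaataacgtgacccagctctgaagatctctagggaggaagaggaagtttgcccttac
Pdcd1, chr1:94052554-94052803, minus strand: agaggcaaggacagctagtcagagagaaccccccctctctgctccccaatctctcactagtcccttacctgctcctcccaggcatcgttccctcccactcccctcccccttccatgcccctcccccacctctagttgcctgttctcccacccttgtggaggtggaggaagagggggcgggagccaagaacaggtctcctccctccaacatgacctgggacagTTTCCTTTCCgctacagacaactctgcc
Tigit, chr16:43664185-43664434, minus strand: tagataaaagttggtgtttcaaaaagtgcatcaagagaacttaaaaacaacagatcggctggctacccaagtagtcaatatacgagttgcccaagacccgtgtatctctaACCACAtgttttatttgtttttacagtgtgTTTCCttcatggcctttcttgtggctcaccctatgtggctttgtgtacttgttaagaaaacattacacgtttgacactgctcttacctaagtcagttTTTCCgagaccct
Cd5, chr19:10738975-10739224, minus strand: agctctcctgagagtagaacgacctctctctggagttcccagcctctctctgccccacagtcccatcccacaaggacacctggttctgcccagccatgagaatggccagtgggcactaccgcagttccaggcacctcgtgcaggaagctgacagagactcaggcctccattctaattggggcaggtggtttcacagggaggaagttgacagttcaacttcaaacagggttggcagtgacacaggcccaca

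Of the searched motifs, GGAAA and TGTGGT occurred in these 5 windows. So few windows cannot tell a share among the members from the share over all windows. GGAAA, on either strand, was found in Ctla4, Pdcd1 and Tigit, and 55.6% of all 32851 RefSeq promoter windows of the same length hold it. The Ctla4 match began 144 bases before the start site. Pdcd1 had matches at 28 and 23 bases, and Tigit at 110 and 13 bases before the start site. TGTGGT, on either strand, was found in Btla at 178 bases and in Tigit at 140 bases, and 14.05% of all windows hold it. The palindrome of TTC and GAA with any 4 bases between, the spacing that STAT6 prefers, was in 0 of the 5 windows against 5.85% of all windows, and the STAT palindrome with any 3 bases between was in 0 of 5 against 7.02%. The AP-1 motif TGANTCA (6.75% of all windows), the TCF/LEF motifs CTTTGAA (4.46%) and CTTTGAT (3.21%) and the long ETS motif CCGGAAG (6.91%), each searched on both strands, were also in 0 of 5. The shorter ETS core GGAA, which lies inside GGAAA, was not counted on its own. The motif hits do not overlap one another, and a match is a run of letters, not a measured binding site. GC content was 40.0% in the Tigit window, 42.4% in Ctla4, 47.2% in Btla, 56.8% in Cd5 and 60.4% in Pdcd1, against a median of 52.4% over all windows.

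Depth ranged over 1049460 to 1802405 reads in peaks per library. Values are CPM, with every library set to the same total over the peaks of the table, so 1 read was worth between 0.555 and 0.953 CPM, and a value of 0 allows up to 3 reads, or 1.66 to 2.86 CPM. Replicate 1 of Il21e KO stood apart from the other 8 libraries: 27200 peaks (23.5%) had no read in it, against 3898 to 12916 in the others, and 42.7% of its reads lay in peaks at a transcription start site (TSS), against 31.6% to 36.4%. At Stat6, a peak in exon 12 held 3 to 5 reads in Stat6 KO libraries, 5 to 15 in Il21e KO libraries and 9 to 19 in WT libraries (Stat6 KO against WT, log2 fold change -1.59, limma-trend adjusted p = 1.00), while the Stat6 promoter peak held 107 to 113, 75 to 113 and 88 to 137 reads in the same order. A peak in exon 16 of Stat6 went the other way, with 25 to 41 reads in Stat6 KO, 2 to 14 in Il21e KO and 9 to 17 in WT (Stat6 KO against WT, 1.11, and against Il21e KO, 1.77; limma-trend adjusted p = 1.00 and 0.506). The 6 peaks of Il21 held at most 5 reads in any library, so they check nothing. The promoters of the T cell genes Tcf7 and Cd3e averaged 68.0 and 24.4 CPM, that of the B cell gene Cd79a 3.03 CPM, and that of the NK cell gene Ncr1 1.86 CPM, but Cd4 itself averaged only 5.51 CPM, below Cd8b1 at 35.1 CPM. Foxp3, Klrb1c, Lyz2, Csf1r, Gata1 and Cd8a carried no TSS peak in the table. Other markers had TSS peaks: the memory and effector genes Cd44 and Tbx21 averaged 34.5 and 34.2 CPM, and the B cell gene Ms4a1 7.23 CPM. Over genes with a TSS peak, the highest one had a list median of 2.73 CPM for B cell, 6.89 for NK and 12.7 for memory and effector markers. The median was 16.7 CPM for CD8, 17.4 for erythroid (1 gene), 23.5 for naive CD4, 23.9 for myeloid and 28.4 for regulatory markers (3 genes).

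The 164 peaks were mostly distal. Only 10 were annotated at a TSS, 54 lay inside a gene, and 100 were intergenic, 47 of them upstream and 53 downstream. TSS peaks were therefore 6.10% of the members' peaks against 12.6% of all peaks, and intergenic peaks 61.0% against 36.0%. The rule adds intergenic peaks, which lowers the first share and raises the second. The median peak was 389.5 bp wide against 433 bp over the whole table, and its mean was 4.44 CPM against 3.34 CPM. Of the 52 peaks that averaged at least 10 CPM, 44 lay away from a TSS. A filter on low values passed 73 of the 164 (44.5%, against 41.7% of all peaks), and the other 91 averaged 0.638 to 5.32 CPM, with no more than 15 reads in any library.

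Cd28, Ctla4 and Icos are neighbours on chromosome 1, and together they held 90 of the 164 peaks and 48.0% of the members' summed CPM over a stretch of 353 kb. Cd28 had 42 peaks, Icos 29 and Ctla4 19, and 8 intergenic peaks lay within 50 kb of both Ctla4 and Icos. Each was counted once, for the nearer gene, which gave 2 to Ctla4 and 6 to Icos. Cd6 had 22 peaks, 18 of them inside the gene, while Tigit had 17, Btla 16, Pdcd1 10 and Cd5 9. One intergenic peak lay near both Cd5 and Cd6 and was counted for Cd6, since the 2 genes are neighbours on chromosome 19 with transcripts of A430093F15Rik between them. Another 12 intergenic peaks lay closer to a gene outside the list, 6 of Btla's to Atg3, 2 of Cd5's to Vps37c, 1 of Cd6's to Slc15a3 and 3 of Tigit's to Zbtb20. At the edge of the window, the last intergenic peak inside 50 kb of each gene averaged 0.684 to 47.4 CPM, and the first one outside averaged 0.958 to 10.7 CPM.

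**Figure D1:**
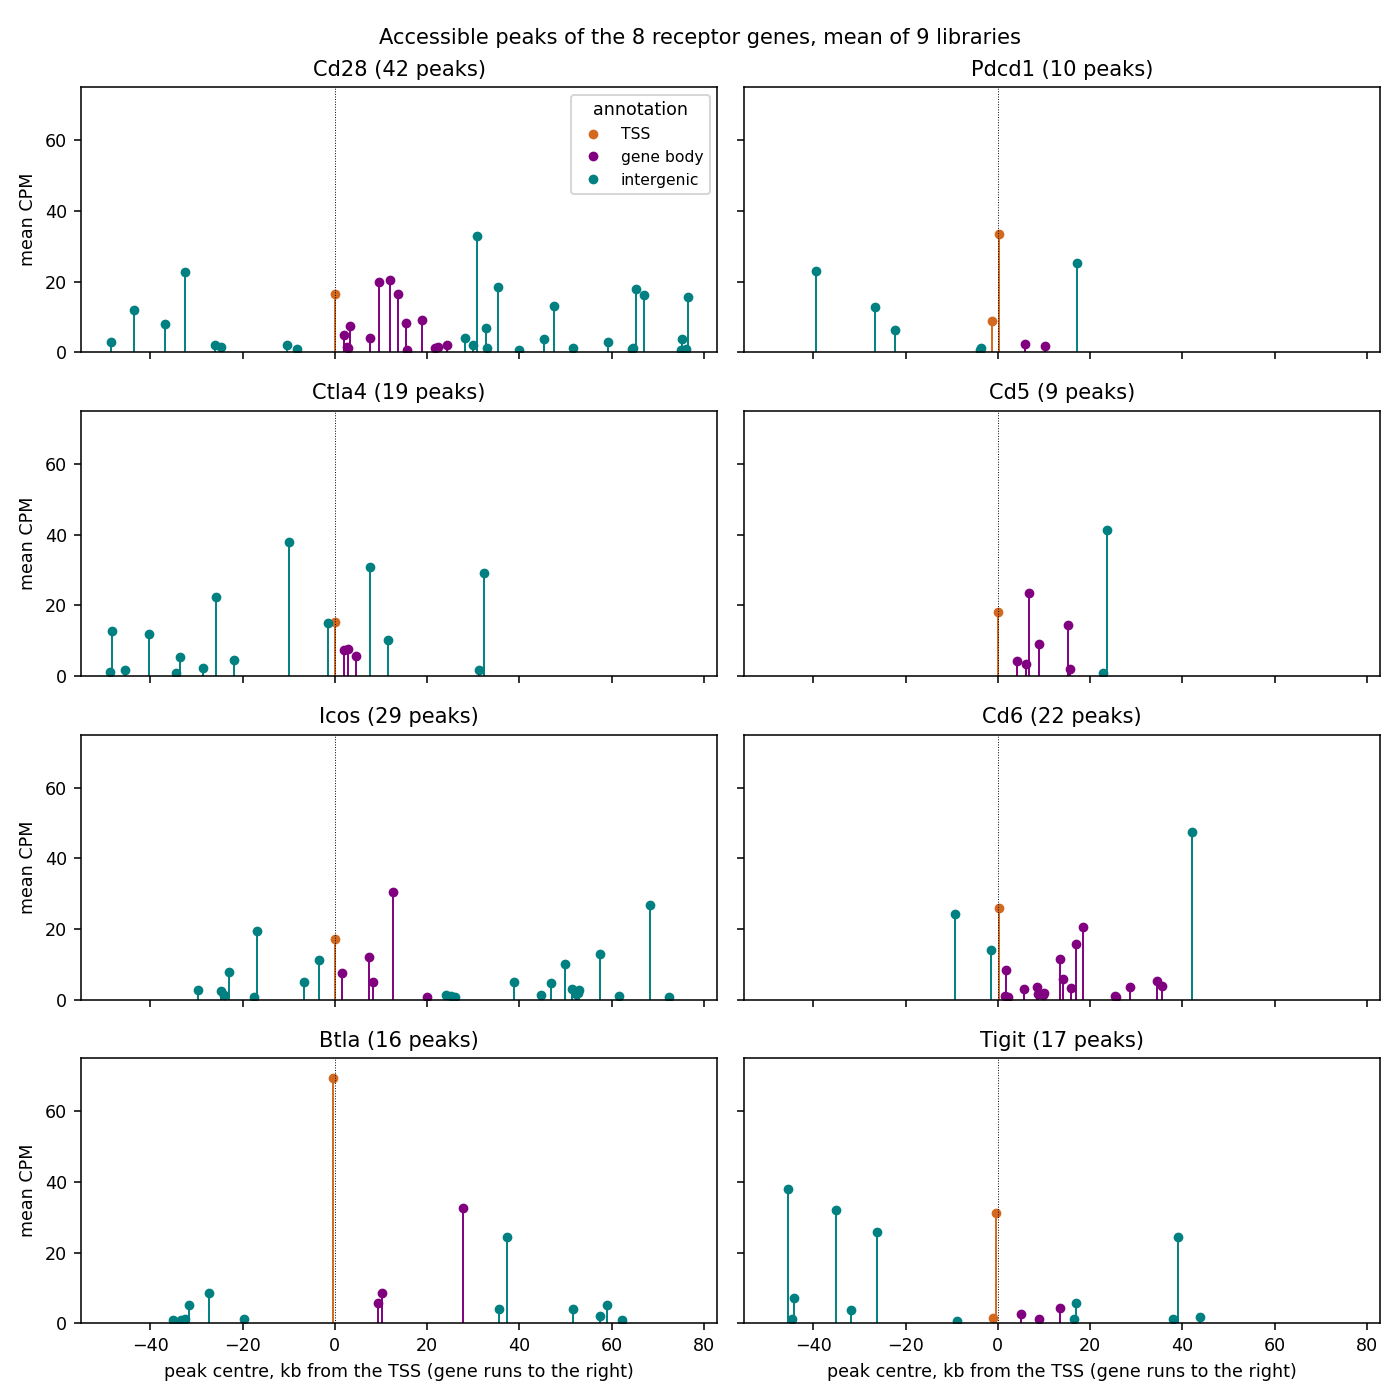
Each stem is 1 peak, drawn at the distance of its centre from the gene's TSS in kb (horizontal axis, the gene running to the right) and as high as its mean CPM over 9 libraries (vertical axis), coloured by annotation. Btla has its highest peak at the promoter (69.5 CPM), whereas Cd28, Ctla4, Icos, Cd5, Cd6 and Tigit have a higher peak elsewhere.

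The genes differed in how much of the accessibility counted for them sat at the promoter. That share also depends on the intergenic peaks caught within 50 kb, some of them nearer to other genes. They numbered 27 at Cd28, 23 at Icos and 15 at Ctla4. Btla and Tigit had 12 each, Pdcd1 6, Cd6 3 and Cd5 2. Pdcd1 and Tigit had 2 TSS peaks each, and the other genes 1. TSS peaks held 39.7% of the summed CPM at Btla and 36.6% at Pdcd1, but 5.30% at Cd28, 6.87% at Ctla4 and 8.70% at Icos. Cd6 (12.6%), Cd5 (15.5%) and Tigit (17.7%) lay between. For Cd28, the highest peak was not at its promoter but 30.9 kb from the TSS, beyond the 3′ end of the gene (chromosome 1, 60833549 to 60834702), at 33.0 CPM against 16.6 CPM at the promoter. Ctla4 had its highest peak 9.94 kb upstream of the TSS (60955214 to 60956641), at 38.0 CPM against 15.3 CPM at the promoter, and a second one 7.56 kb past the TSS, beyond the gene's end, at 30.9 CPM. Icos had its highest peak in intron 1, 12.6 kb from the TSS (61046863 to 61047891), at 30.5 CPM against 17.3 CPM. Per kb of peak these 3 distal peaks reached 28.6, 26.6 and 29.6 CPM, in the order Cd28, Ctla4 and Icos, each above the promoter of its gene.

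At the inhibitory receptors outside that stretch, Tigit had a chain of upstream peaks, the farthest 45.5 kb from the TSS (chromosome 16, 43709082 to 43710563) at 38.0 CPM, and others at 35.0 kb with 32.1 CPM and at 26.2 kb with 25.7 CPM. The second peak of Btla lay at its transcription termination site, 27.8 kb from the TSS, at 32.6 CPM. Pdcd1 had a peak 17.2 kb from the TSS and past the gene's end, at 25.4 CPM, and one 39.4 kb upstream at 22.9 CPM. For Cd6 the highest peak lay just past the gene's end (chromosome 19, 10861591 to 10863337), at 47.4 CPM. That Cd6 peak is the one that also lies within 50 kb of Cd5. Of the peaks counted for Cd5 the highest, at 41.2 CPM, lay 23.6 kb from its TSS and closer to Vps37c, so it did not enter the Cd5 sum used below.

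Promoter levels were compared per kb of peak, because the promoter peaks ranged from 703 bp at Ctla4 to 2348 bp at Btla. Over all 9 libraries the order was Btla (29.6 CPM per kb), Cd6 (26.4), Pdcd1 (25.8), Tigit (24.6), Cd5 (23.3), Icos (23.2), Ctla4 (21.8) and Cd28 (16.1). No gene was above the next one in all libraries, except Ctla4 above Cd28, in 9 of 9. The other neighbours in that order were the right way round in only 4 to 7 of the 9 libraries, and the ranges of every neighbouring pair overlapped. Among all TSS peaks, the Btla promoter stood at the 93.4th percentile per kb, Cd6 at 80.3, Pdcd1 at 77.03 and Tigit at 69.6. Cd5 stood at 61.7, Icos at 60.6, Ctla4 at 51.3 and Cd28, the constitutively expressed costimulatory receptor, at 26.9. By CPM, not divided by peak width, Cd28 stood at 32.05 and Ctla4 at 29.8.

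**Figure D2:**
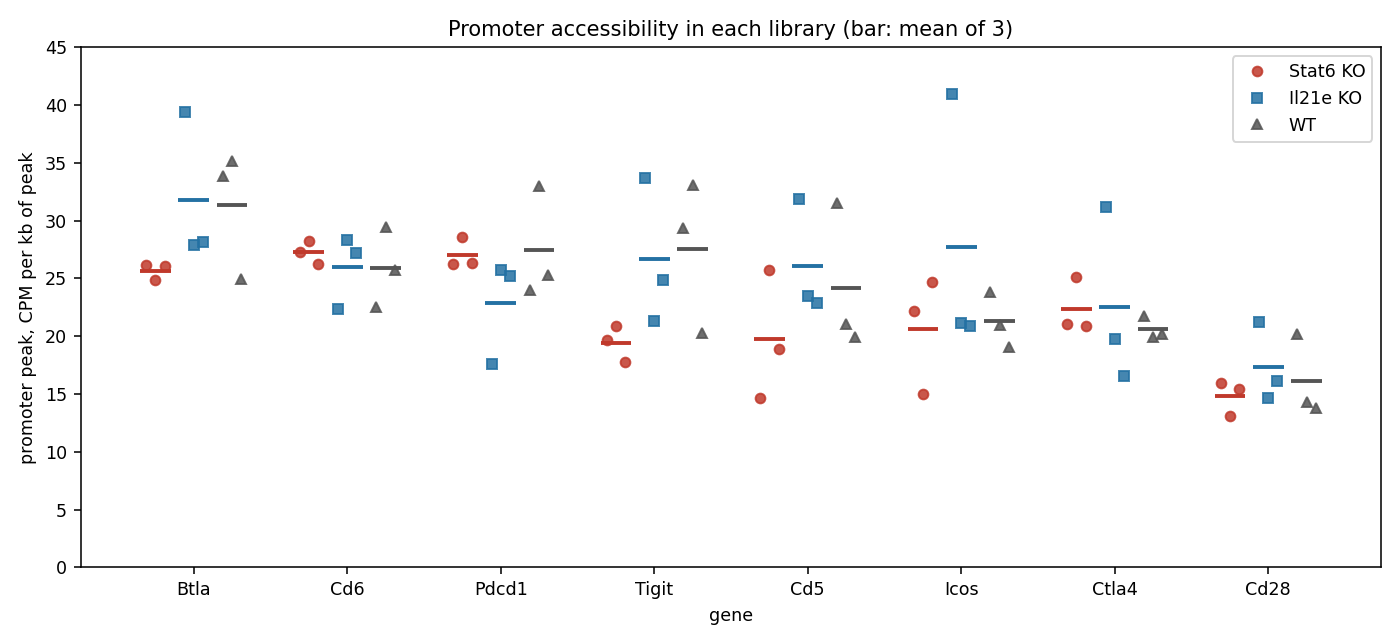
CPM per kb of the promoter peak (vertical axis) in each library for the 8 genes, ordered by their mean, with Stat6 KO (circles), Il21e KO (squares) and WT (triangles); bars are means of 3 libraries. The genotypes overlap at every gene except Btla, Pdcd1 and Tigit between Stat6 KO and Il21e KO, and the highest Icos and Btla points are Il21e KO 1.

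The values by library begin with the costimulatory receptors. The Cd28 promoter peak (chromosome 1, 60802651 to 60803682) had 16.5, 13.5 and 15.9 CPM in Stat6 KO libraries, 21.9, 15.1 and 16.6 CPM in Il21e KO libraries and 20.8, 14.8 and 14.2 CPM in WT libraries. The Icos promoter peak (61034382 to 61035126) had 16.5, 11.2 and 18.3 CPM in Stat6 KO, 30.5, 15.8 and 15.5 CPM in Il21e KO and 17.7, 15.6 and 14.2 CPM in WT. At both genes the 3 genotypes overlapped, and the single highest value was Il21e KO 1. The Ctla4 promoter peak (60965520 to 60966223), of the inhibitory receptor between them, had 14.8, 17.7 and 14.7 CPM in Stat6 KO, 21.9, 13.9 and 11.7 CPM in Il21e KO and 15.3, 14.01 and 14.2 CPM in WT. At Ctla4 the genotypes overlapped as well, and Il21e KO held both the highest and the lowest value.

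Among the other inhibitory receptors, the Btla promoter peak (chromosome 16, 45222921 to 45225269) had 61.4, 58.3 and 61.2 CPM in Stat6 KO, 92.4, 65.5 and 66.0 CPM in Il21e KO and 79.5, 82.5 and 58.7 CPM in WT. The Tigit promoter peak (43663976 to 43665247) had 25.003, 26.5 and 22.6 CPM in Stat6 KO, 42.9, 27.1 and 31.6 CPM in Il21e KO and 37.3, 42.0 and 25.8 CPM in WT. At both promoters all 3 Stat6 KO libraries were below all 3 Il21e KO libraries, and WT overlapped with Stat6 KO through replicate 3. The main Pdcd1 promoter peak (chromosome 1, 95948141 to 95949440) had 34.1, 37.1 and 34.3 CPM in Stat6 KO, 22.9, 33.4 and 32.7 CPM in Il21e KO and 31.2, 42.8 and 32.9 CPM in WT. There Stat6 KO was above Il21e KO in every library, the opposite order to Btla and Tigit, and WT overlapped with both.

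The scavenger-type receptors had overlapping genotypes at their promoters. The Cd5 promoter peak (chromosome 19, 10813056 to 10813833) had 11.4, 20.02 and 14.7 CPM in Stat6 KO, 24.8, 18.3 and 17.8 CPM in Il21e KO and 24.5, 16.3 and 15.5 CPM in WT. The Cd6 promoter peak (10903848 to 10904827) varied least, with 26.7, 27.7 and 25.7 CPM in Stat6 KO, 21.9, 27.7 and 26.6 CPM in Il21e KO and 22.0, 28.8 and 25.2 CPM in WT.

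Stat6 KO was first compared with WT, which asks whether loss of STAT6 changes accessibility at these receptors in resting cells. Of the 73 tested member peaks, 0 passed an adjusted p of 0.05 (limma-trend on log2(CPM + 1), Benjamini-Hochberg over the 48287 peaks tested), where 0.0104% of all peaks were called. The quasi-likelihood test of edgeR and DESeq2, both run on reads recovered from the CPM, also called 0 member peaks, here and in the 2 comparisons below. At an unadjusted p under 0.05 there were 2 member peaks (2.74%), against 3.29% of all peaks. Log2 fold changes, here on the log2(CPM + 1) scale, were positive in 33 (45.2%, against 49.2% of all peaks), with a median of -0.03 against -0.00 over all peaks, and none was larger than 1. The 2 groups did not overlap at 5 of the 73 peaks, 4 higher and 1 lower in Stat6 KO, where 13.2% of all peaks did not overlap. In bulk libraries such as these, fewer cells with an open site and less opening per cell cannot be told apart.

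The smallest unadjusted p belonged to an Icos intron 1 peak 7.36 kb from the TSS (chromosome 1, 61041820 to 61042406). It had 15.3, 12.4 and 14.7 CPM in Stat6 KO libraries, against 7.34, 10.1 and 10.3 CPM in WT libraries, with 9.53, 13.2 and 14.4 CPM in Il21e KO. Every Stat6 KO value was above every WT value, and Il21e KO overlapped with Stat6 KO. The log2 fold change was 0.57 ± 0.23 (SE; unadjusted p = 0.0252, limma-trend adjusted p = 1.00), so it did not pass over all peaks. Next was the Tigit promoter peak already described, at -0.46 ± 0.21 (unadjusted p = 0.0393, limma-trend adjusted p = 1.00), where WT replicate 3 lay among the Stat6 KO values. A further one, 58.9 kb from the Btla TSS, had 5.11, 2.94 and 3.06 CPM in Stat6 KO against 7.34, 4.67 and 9.67 CPM in WT, a difference of -0.79 ± 0.46 that rests on few reads (unadjusted p = 0.102, limma-trend).

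Il21e KO was then compared with the same 3 WT libraries, so the comparisons share their controls. Again 0 of the 73 member peaks passed, where 0% of all peaks were called. There was 1 member peak (1.37%) at an unadjusted p under 0.05, against 3.52% of all peaks. Log2 fold changes were positive in 37 of 73 (50.7%, against 45.2% of all peaks), with a median of 0.01 against -0.03. The groups did not overlap at 2 peaks, 1 in each direction, where 7.28% of all peaks did not overlap. The peak with the smallest p lay 27.3 kb upstream of the Btla TSS (chromosome 16, 45196846 to 45197503) and nearer to Atg3, with 11.4, 11.3 and 9.99 CPM in Il21e KO, against 9.79, 4.67 and 6.45 CPM in WT. Its groups were separate by a narrow margin, and the difference of 0.63 ± 0.27 did not pass (unadjusted p = 0.0349, limma-trend adjusted p = 1.00). A second Pdcd1 TSS peak, 1.20 kb upstream of the main start site, had 5.72, 6.30 and 9.43 CPM in Il21e KO, all below the 10.4, 12.5 and 9.67 CPM in WT (-0.56 ± 0.28, limma-trend unadjusted p = 0.0581). A peak 47.6 kb past the Cd28 TSS had 16.2, 12.6 and 17.8 CPM in Il21e KO against 13.5, 8.56 and 12.3 CPM in WT, and these overlapped (0.42 ± 0.23, limma-trend unadjusted p = 0.0823).

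Between the knockouts, Stat6 KO against Il21e KO, 0 of the 73 member peaks passed, where 0.0104% of all peaks were called, and 2 (2.74%) had an unadjusted p under 0.05, against 5.68% of all peaks. The median log2 fold change was -0.03 against 0.04 over all peaks, and 35 of 73 (47.9%) were positive against 54.8% of all. Groups did not overlap at 9 member peaks, 5 higher and 4 lower in Stat6 KO, where 11% of all peaks did not overlap; 3 of the 9 are the promoters of Btla, Pdcd1 and Tigit. A peak 49.8 kb past the Icos TSS (chromosome 1, 61084325 to 61084783) had 11.9, 11.8 and 12.8 CPM in Stat6 KO against 4.76, 8.19 and 10.5 CPM in Il21e KO, a difference of 0.63 ± 0.26 (unadjusted p = 0.0267, limma-trend adjusted p = 0.780), which was 0.36 without Il21e KO 1. An intron 1 peak of Cd6, 16.9 kb from the TSS (chromosome 19, 10887380 to 10887978), had 15.9, 14.1 and 7.95 CPM in Stat6 KO against 21.9, 15.8 and 18.9 CPM in Il21e KO (-0.58 ± 0.25, limma-trend unadjusted p = 0.0303), with the ranges just overlapping. The Tigit promoter differed by -0.42 ± 0.21 (limma-trend unadjusted p = 0.0603), and by -0.24 without Il21e KO 1. Leaving that library out, the count of member peaks called was 0 in each of the 3 comparisons, as with all 9 libraries. Counts over all peaks in that setting are given in the last section. At the 3 peaks named for Stat6 KO against WT, the limma-trend unadjusted p fell without it. It was 0.00911 at the Icos intron 1 peak, 0.00541 at the Tigit promoter and 0.0462 at the Btla peak (adjusted p = 0.348, 0.300 and 0.527). At the peaks named for the other comparisons it rose.

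**Figure D3:**
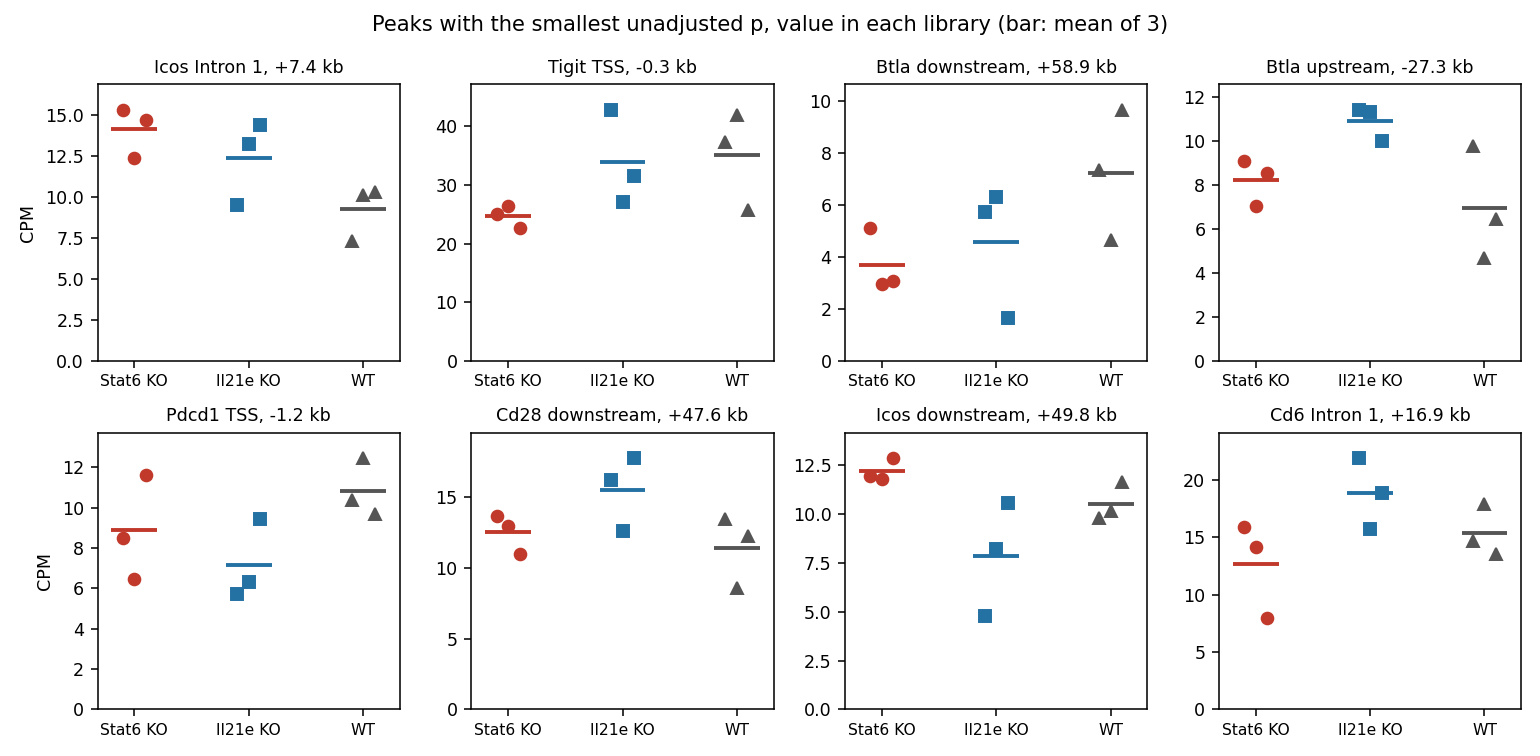
CPM in each library (vertical axis, from 0) for the 8 member peaks that had the 3 smallest unadjusted p values in a comparison, with Stat6 KO, Il21e KO and WT from left to right and bars at the means of 3; titles give the place and the distance from the TSS. Stat6 KO and WT do not overlap at the Icos intron 1 peak and the Icos peak at +49.8 kb. Il21e KO and WT do not overlap at the Btla peak at -27.3 kb and the Pdcd1 peak at -1.2 kb. The knockouts do not overlap at the Icos peak at +49.8 kb, the Btla peak at -27.3 kb and the Tigit promoter. None of the 8 passed over all peaks.

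Summing each gene's peaks gave more reads per value and tighter estimates. The sums held the peaks with the gene's symbol and the intergenic peaks within 50 kb for which it was the nearest gene, from 7 peaks at Cd5 to 42 at Cd28. Cd28 had the largest sum, a mean of 313 CPM over 9 libraries (98.6th percentile of 16129 gene sums), then Ctla4 with 223, Icos with 198, Cd6 with 181, Btla with 157, Tigit with 156, Pdcd1 with 116 and Cd5 with 74.5 CPM (77.5th percentile). Per kb of peak the order differed, with Btla at 21.9 CPM per kb, Cd5 at 20.4, Ctla4 at 20.2, Pdcd1 at 19.0, Cd6 at 18.9, Tigit at 18.4, Cd28 at 16.4 and Icos at 15.5. Among all gene sums, Cd28 stood at percentile 99.1 by number of peaks but 55.3 per kb, and Icos at 97.6 and 49.2. Btla stood at 80.9 and 85.8. Neighbours in this order held it in 4 to 7 of 9 libraries, apart from Tigit above Cd28 in 9 of 9.

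None of the 8 sums passed in any of the 3 comparisons. In Stat6 KO against WT, 0 of 8 were called (0.00677% of all 14762 gene sums tested) and 0 had an unadjusted p under 0.05 (3.08% of all). In Il21e KO against WT the counts were 0 and 0 of 8 (0% and 2.84% of all), and in Stat6 KO against Il21e KO 0 and 0 of 8 (0.00677% and 5.26% of all). The 95% confidence intervals of all 8 genes lay within 0.774-fold and 1.18-fold for Stat6 KO against WT, within 0.848-fold and 1.18-fold for Il21e KO against WT, and within 0.771-fold and 1.15-fold for Stat6 KO against Il21e KO. A p that misses the threshold does not show that the sums are equal, but differences outside these limits fall outside every interval.

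Cd28 was the most precisely measured. Its sum was 309 ± 19.4 CPM in Stat6 KO, 321 ± 22.4 CPM in Il21e KO and 310 ± 5.67 CPM in WT (SD, n = 3 each), a log2 fold change of -0.01 ± 0.06 (SE) for Stat6 KO against WT and 0.05 ± 0.06 for Il21e KO against WT. Ctla4 had 219 ± 17.8 CPM in Stat6 KO, 222 ± 8.65 CPM in Il21e KO and 228 ± 8.48 CPM in WT, with changes of -0.06 ± 0.07 and -0.04 ± 0.07. Icos was the one gene of the 8 with a positive estimate in Stat6 KO against WT, at 204 ± 8.49 CPM in Stat6 KO, 198 ± 15.4 CPM in Il21e KO and 192 ± 8.19 CPM in WT (0.09 ± 0.07 and 0.04 ± 0.07). At all 3 genes the ranges of the 3 genotypes overlapped, and no difference passed.

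The sums of Cd5, Cd6 and Tigit had the lowest estimates in Stat6 KO. Cd6 had 168, 171 and 174 CPM in Stat6 KO libraries, 172, 168 and 202 CPM in Il21e KO libraries and 189, 187 and 193 CPM in WT libraries. Every Stat6 KO value was below every WT value, and Il21e KO overlapped with both. The fold change was -0.15 ± 0.08 (unadjusted p = 0.0716, limma-trend adjusted p = 1.00). Cd5 had 63.1, 72.4 and 72.8 CPM in Stat6 KO, 79.1, 74.4 and 78.8 CPM in Il21e KO and 80.2, 74.0 and 76.1 CPM in WT, so Stat6 KO was below both other genotypes in every library (-0.14 ± 0.10 against WT and -0.16 ± 0.10 against Il21e KO; limma-trend unadjusted p = 0.179 and 0.146). Groups of this kind that did not overlap numbered 2 of the 8 sums in Stat6 KO against WT (14.4% of all sums), 0 in Il21e KO against WT (6.62%) and 1 in Stat6 KO against Il21e KO (11%). Tigit had 142, 154 and 142 CPM in Stat6 KO, 187, 153 and 143 CPM in Il21e KO and 170, 174 and 144 CPM in WT, which overlapped (-0.15 ± 0.10 against WT). With Il21e KO 1 left out of the fit, the unadjusted p against WT was 0.0316 for Cd6 and 0.0426 for Tigit, and both still missed over all sums (limma-trend adjusted p = 0.405 and 0.434).

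Markers of other cells were set beside these sums. Over 13 genes that mark memory and effector T cells, such as Cd44 and Tbx21, summed accessibility was 440 to 457 CPM in Stat6 KO, 438 to 461 CPM in Il21e KO and 478 to 490 CPM in WT libraries, so both knockouts lay below WT in every library. The 4 CD8 T cell markers (150 to 153, 135 to 158 and 162 to 167 CPM in the same order of genotypes) and the myeloid markers (8 of 10 genes with a peak, 251 to 266, 239 to 268 and 274 to 281 CPM) did likewise. The 6 regulatory T cell markers summed to 442 to 450 CPM in Stat6 KO, 385 to 474 CPM in Il21e KO and 455 to 485 CPM in WT. There Stat6 KO lay below WT in every library, and Il21e KO overlapped with WT. Sums over a list were not tested. Among single gene sums, 14.4% of all did not overlap in Stat6 KO against WT and 6.62% in Il21e KO against WT. Sums over several genes hold more reads, and no such share was worked out for them. B cell markers (222 to 247, 119 to 233 and 179 to 246 CPM over 10 genes), NK cell markers (23.9 to 31.8, 14.3 to 26.1 and 18.7 to 29.7 CPM over the 4 of 6 genes with a peak), erythroid markers (84.4 to 92.6, 68.6 to 102 and 80.2 to 92.2 CPM over the 4 of 6 genes with a peak) and the 12 naive CD4 T cell markers (1794 to 1911, 1852 to 2385 and 1861 to 2080 CPM) overlapped between knockout and WT. Of the marker genes tested, 0 passed in any comparison (limma-trend), and their part in the values of Cd5, Cd6 and Tigit was not tested.

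**Figure D4:**
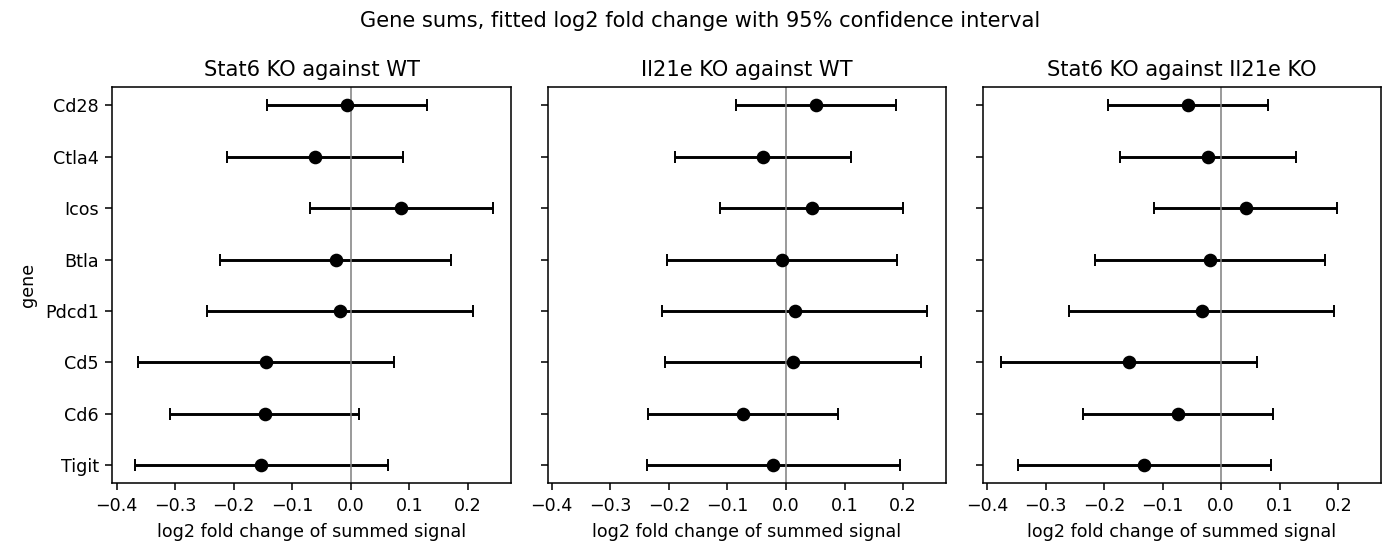
Fitted log2 fold changes of the summed signal (horizontal axis) with 95% confidence intervals for the 8 genes in the 3 comparisons. Every interval includes 0; the lowest estimates for Stat6 KO against WT are those of Cd5, Cd6 and Tigit, between -0.14 and -0.15.

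Btla and Pdcd1 summed to 155 ± 3.49 and 114 ± 1.38 CPM in Stat6 KO, 158 ± 20.3 and 117 ± 4.39 CPM in Il21e KO, and 158 ± 12.7 and 117 ± 19.8 CPM in WT. Their estimates for Stat6 KO against WT were -0.03 ± 0.09 and -0.02 ± 0.11, and for Il21e KO against WT -0.01 ± 0.09 and 0.02 ± 0.11. At the transcription termination site of Btla, Stat6 KO had 35.8, 33.0 and 36.7 CPM against 38.1, 31.5 and 28.9 CPM in Il21e KO and 33.7, 26.5 and 29.0 CPM in WT. Without Il21e KO 1, the estimates for Il21e KO against WT were -0.11 for Btla and -0.13 for Tigit, in place of -0.01 and -0.02 with it, and neither passed (limma-trend adjusted p = 0.764 and 0.719).

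Il21e KO 1 also stood apart at these genes. It was the highest of the 9 libraries at 6 of the 9 tested member TSS peaks (54.9% of all tested TSS peaks) and the lowest at the other 3, both Pdcd1 peaks and Cd6 (16.6% of all). Away from a TSS it was the highest at 19 of 64 member peaks (14.9% of all such peaks) and the lowest at 15 (40.1% of all). The Icos promoter reached 1.95 times the median of the other libraries, and its log2 fold change for Il21e KO against WT was 0.30 with this library and -0.01 without it, while a peak 16.9 kb past the Tigit TSS held 1 read in it, 0.150 times that median. TSS peaks held 18.1% of the members' CPM in Il21e KO 1, 14.96% and 14.8% in the other Il21e KO libraries, 14.4%, 14.3% and 14.8% in Stat6 KO and 16.8%, 17.2% and 14.2% in WT. In WT, replicates 1 and 2 had both the higher promoter shares and the higher Btla and Tigit promoters, as Il21e KO 1 did. How far the promoter share of a library sets the Btla and Tigit values was not tested.

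**Figure D5:**
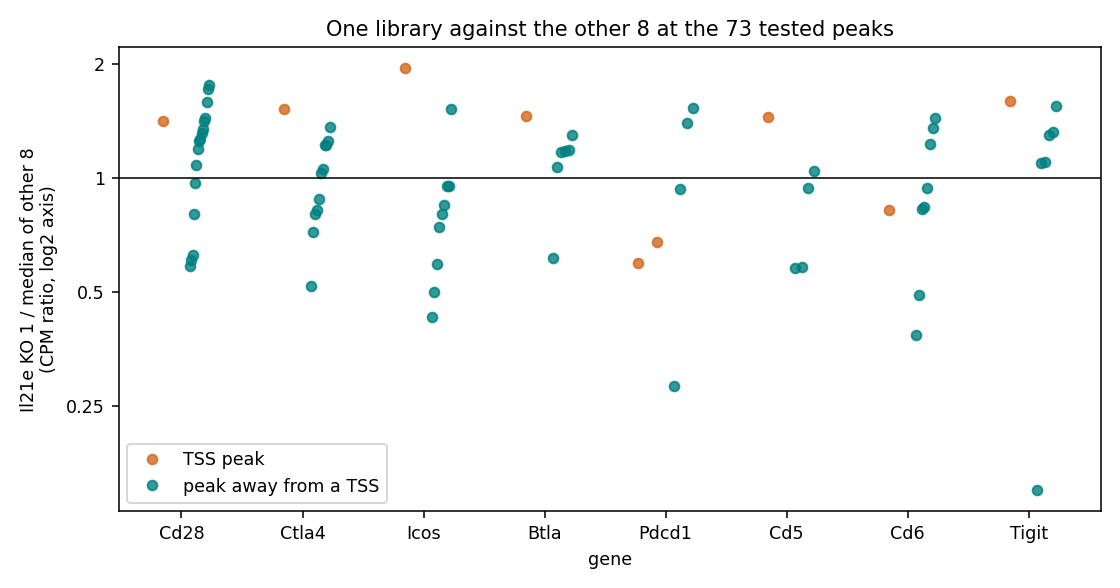
CPM in Il21e KO 1 divided by the median of the other 8 libraries (vertical axis, log2 scale) at the 73 tested member peaks, TSS peaks left and other peaks right for each gene. Of the 9 TSS peaks 6 lie above 1, and the 3 below are 2 of Pdcd1 and 1 of Cd6.

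The sums that varied most alike across the 9 libraries were those of Akna for Btla (Pearson r = 0.986), Ccnf for Tigit (0.983), Ninj2 for Pdcd1 (0.977), Tmcc2 for Icos (0.956), Rd3 for Ctla4 (0.947), Mir1953 for Cd6 (0.945), Slc25a32 for Cd5 (0.942) and Klhl20 for Cd28 (0.940). Each is the highest of 12342 genes over 9 points that share library and depth, so a value of this size is a description of these libraries.

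Genes that work with the 8 receptors were described from 4 lists of 70 genes, of which 63 could be tested as sums. None of the 63 passed in any comparison (limma-trend), and at an unadjusted p under 0.05 there were 1 in Stat6 KO against WT, 0 in Il21e KO against WT and 7 in Stat6 KO against Il21e KO, or 1.59%, 0% and 11.1% of the 63, against 3.08%, 2.84% and 5.26% of all sums. The 15 costimulatory receptors outside the 8 had a median log2 fold change of -0.00 in Stat6 KO against WT, -0.06 in Il21e KO against WT and 0.07 in Stat6 KO against Il21e KO. In the same order of comparisons, the 12 tested inhibitory receptors had medians of 0.04, -0.16 and 0.17, the 9 tested ligands -0.02, -0.05 and 0.08, and the 27 tested signalling partners -0.01, -0.00 and -0.01, beside 0.00, -0.00 and 0.00 over all sums.

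Pik3ip1, an inhibitor of the PI3 kinase that CD28 and ICOS engage, had the smallest p in Stat6 KO against WT. Its sum was 50.6, 45.3 and 52.6 CPM in Stat6 KO, 105, 51.7 and 60.5 CPM in Il21e KO and 71.0, 74.7 and 60.0 CPM in WT. Stat6 KO was below WT in every library, and Il21e KO 1 was far above the rest. The difference of -0.46 ± 0.20 did not pass with all 9 libraries (unadjusted p = 0.0341, limma-trend adjusted p = 1.00) over all sums. Without Il21e KO 1 the same -0.46 had an adjusted p of 0.0435 by limma-trend, when 61 of 14895 sums were called, 0 of them among the 8 receptors. Cd72 (-0.30 ± 0.14) and Ly9 (-0.25 ± 0.13) followed. Cd86, a ligand of CD28 and CTLA-4, had the smallest p in both other comparisons, with 127, 155 and 151 CPM in Il21e KO against 149, 172 and 171 CPM in WT and 172, 169 and 179 CPM in Stat6 KO (Il21e KO against WT -0.19 ± 0.09, Stat6 KO against Il21e KO 0.27 ± 0.09). Pecam1 (-0.17 ± 0.08) and Tnfrsf14, the BTLA partner HVEM (0.17 ± 0.08), came next in Il21e KO against WT, and Pecam1 (0.21 ± 0.08) and Csnk2b (-0.49 ± 0.19) in Stat6 KO against Il21e KO. Without Il21e KO 1, Il21e KO against WT was -0.10 for Cd86, -0.07 for Pecam1 and 0.16 for Tnfrsf14, and Stat6 KO against Il21e KO was 0.18 for Cd86, 0.11 for Pecam1 and -0.30 for Csnk2b.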

How the data were processed

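Open chromatin was measured by ATAC-seq in 9 libraries, 3 per genotype. Per the labels' protocols, 50,000 cells were tagmented with the Nextera enzyme and sequenced as 75-bp paired ends. The submitters' processing notes list HOMER, MACS2 2.0 and Bowtie 1.3.0 without their roles, and the build mm9. How peaks were merged is not given in the sources used here. The authors deposited 1 table of 115727 peaks with CPM per peak, where each column sums to the same total, so each library was divided by its own reads in listed peaks, and a change in total accessibility would not show. The headers of the gene columns are shifted, and the columns were read by content.

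In each library the deposited CPM values were multiples of 1 smallest step (100% of values whole within 0.01 of it), which was taken as the worth of 1 read. Peaks entered the test by filterByExpr of edgeR 4.0.16 on these reads (minimum count 10, minimum total 15). Differences in log2(CPM + 1) were then tested in a single fit of the 9 libraries by limma-trend, using limma 3.58.1 under R 4.3.3, and p-values were adjusted by Benjamini-Hochberg over every peak, or every gene sum, that was tested. Procedures were tested on simulated data with a common profile and spread for all libraries, apart from changes set in Stat6 KO. That setting held no library such as Il21e KO 1, so it does not show how the tests behave with it. Alternatives were edgeR and DESeq2 1.42.0 on the recovered reads, limma-voom, other scalings, pseudocounts, filters and windows, and leaving out each library. The members, the gene lists and the tests were chosen with earlier results of these data known. Named were each gene's highest TSS peak, its highest other peak, and the 3 smallest p per comparison. The Stat6 exon 12 and exon 16 peaks were known from earlier results. Promoter sequences are from RefSeq, GRCm38.p6, and were not joined to mm9 coordinates. Floors cover counting error only, since PCR copies are not independent molecules. Replicate numbers were not used as pairs in the main fit. Of 9 pairs with the same number, 2 had correlated deviations over 0.1 (range -0.19 to 0.25). Pairs with different numbers reached -0.30 (Il21e KO 1 and WT 3) and 0.24 (Il21e KO 2 and WT 3), so this check does not settle pairing.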

Additional observations from a re-analysis of the deposited data

How the results depend on the processing

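The count of member peaks called stayed at 0 in all 66 refits and the count of member gene sums called at 0 in all 63, and the lowest adjusted p among 1881 refits of 93 fold changes was 0.300. The sign differed from that of the reported value in 99 of these refits (5.26%), of which 15 were among the 93 without Il21e KO 1; in each of the 99, the reported value or the refit was smaller than 1 SE, and neither passed. Peak calls over all peaks were 5, 0 and 5 for Stat6 KO against WT, Il21e KO against WT and Stat6 KO against Il21e KO. They were 63, 4 and 18 without Il21e KO 1, 28, 0 and 6 with only the 2 groups compared in the fit, 9, 0 and 9 without WT 1, 7, 0 and 13 with cyclic loess, 6, 0 and 12 with edgeR on the recovered reads, 6, 0 and 8 with a pseudocount of 5, and 6, 1 and 16 with no filter. Sums called over all genes were 1, 0 and 1, and 61, 21 and 2 without Il21e KO 1. The cause was not tested. With the replicate number as a block, 0 member peaks and 0 member sums were called in each comparison, and all-peak calls were 4, 0 and 5; the block is a number shared by label only. The 24 mean levels per gene and genotype moved by less than 1 SD with TMM scaling. With a median standard error of 0.23 on the log2 scale, small differences at single member peaks were not detectable at this depth.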
